A study of Mus musculus with 3 samples.

Results

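Red cell barcodes dominated by haemoglobin were followed across 3 single-cell libraries of mouse vascular tissue. A barcode stands for 1 droplet, and a unique molecular identifier (UMI) for 1 captured transcript. The barcodes were chosen by a measured value: the adult globin genes Hba-a1, Hba-a2, Hbb-bs and Hbb-bt together had to hold at least 50% of a barcode's UMIs, with no filter on the number of genes. This took 1005 of 14115 barcodes. The libraries came from wild-type (WT) mice given vehicle, sunitinib, or sunitinib with Yoda1, all labelled 3 weeks, with 1 library per group. Sunitinib is an inhibitor of receptor tyrosine kinases, and Yoda1 an agonist of the stretch-activated cation channel PIEZO1, which red cells also carry. The arteries were digested to free the cells, and the labels name no perfusion, red cell lysis, strain, age, dose or number of animals. The Yoda1 label names no sunitinib and was placed with the combined treatment because the series lists no other Yoda1 group.

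Adult haemoglobin is a tetramer of 2 alpha and 2 beta chains, each holding a haem. Young mammalian red cells, the reticulocytes, have lost the nucleus but still hold ribosomes, some mitochondria and long-lived messenger RNA, which they degrade as they mature. A red cell in a digested tissue therefore yields many globin transcripts and few others. With 1 library per group no test between treatments was possible, and all intervals below are 95% intervals for counting error alone. Treatment, animal, tissue preparation and processing version cannot be told apart.

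The libraries differed as a whole. Median depth over all barcodes was 15691 UMIs in the vehicle library, 15338 in the sunitinib library and 4484 in the sunitinib plus Yoda1 library. Barcodes with 10 or more UMIs of the smooth muscle genes Acta2, Myh11 and Tagln numbered 3946, 4222 and 122 in that order. Those with 3 or more UMIs of B and T cell genes numbered 2, 1 and 1853. The combined treatment library thus stood apart in its cell makeup before any red cell was counted. Pairs of libraries shared 3, 3 and 8 barcode sequences, and no shared barcode passed the haemoglobin rule in more than 1 library.

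Of the globin genes, Hba-a1 (ENSMUSG00000069919) lies at chr11:32283511-32284465 and Hba-a2 (ENSMUSG00000069917) at chr11:32296489-32297298, both on the plus strand. Hbb-bs (ENSMUSG00000052305) lies at chr7:103826534-103828096 and Hbb-bt (ENSMUSG00000073940) at chr7:103812524-103813996, both on the minus strand. Alas2 (ENSMUSG00000025270), the first enzyme of haem synthesis in red cell precursors, lies at chrX:150547375-150570638 on the plus strand. Positions are those of GENCODE vM21 on GRCm38, the assembly that mm10 names. The annotated transcripts of the alpha pair differed at 1 of 426 coding bases and at 0 of 77 aligned bases of the 3′ UTR, where 3′ kits take their reads. The split between Hba-a1 and Hba-a2 is therefore uncertain. The beta pair differed at 1 of 441 coding bases but at 37 of 132 aligned 3′ UTR bases, so these reads can be told apart.

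The 120 bases before the RefSeq start sites (GRCm38.p6) are shown because the results below turn on the share of Hbb-bt against Hbb-bs. Capitals mark matches to 4 motifs, each searched on both strands. These are the CCAAT box, the TATA motif spelled TATAA, the CACCC box spelled CCACACCC, and the GATA motif spelled AGATAA. No match overlapped another. Some GENCODE transcript models begin further upstream.

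Hba-a2, chr11:32296372-32296491, plus strand: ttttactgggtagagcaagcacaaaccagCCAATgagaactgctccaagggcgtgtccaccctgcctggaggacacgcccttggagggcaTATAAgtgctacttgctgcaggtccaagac
Hbb-bs, chr7:103827929-103828048, minus strand: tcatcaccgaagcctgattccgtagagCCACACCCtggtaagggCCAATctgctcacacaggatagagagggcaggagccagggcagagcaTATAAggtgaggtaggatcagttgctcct
Hbb-bt, chr7:103813924-103814043, minus strand: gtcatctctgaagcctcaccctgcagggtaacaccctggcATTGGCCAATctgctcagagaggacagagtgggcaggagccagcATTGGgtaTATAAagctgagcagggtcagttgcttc
Alas2, chrX:150547297-150547416, plus strand: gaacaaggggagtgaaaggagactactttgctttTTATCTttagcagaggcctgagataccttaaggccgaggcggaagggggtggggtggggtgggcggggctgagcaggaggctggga

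The Hba-a1 window matched that of Hba-a2 at all of 117 aligned bases. The Hbb-bs and Hbb-bt windows differed at 27 of 118 aligned bases. Both held TATAA and CCAAT, Hbb-bt with 3 CCAAT matches and Hbb-bs with 1. The letters CCACACCC were found in the window of Hbb-bs and not in the other 3 windows shown. Among 32544 promoter windows of this length, TATAA was in 11.9%, CCAAT in 21.2%, CCACACCC in 1.83% and AGATAA in 4.38%. A match describes letters and is no evidence that a factor binds there.

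The number of haemoglobin-dominated barcodes was low in the first 2 libraries and high in the third. There were 35 of 4491 barcodes in the vehicle library (0.779%, exact binomial interval 0.543 to 1.08), 9 of 4506 in the sunitinib library (0.200%, 0.0914 to 0.379) and 961 of 5118 in the sunitinib plus Yoda1 library (18.8%, 17.7 to 19.9). These barcodes held 0.368%, 0.118% and 20.8% of the UMIs of their libraries. They also held 97.7%, 99.9% and 97.2% of all haemoglobin UMIs.

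**Figure D1:**
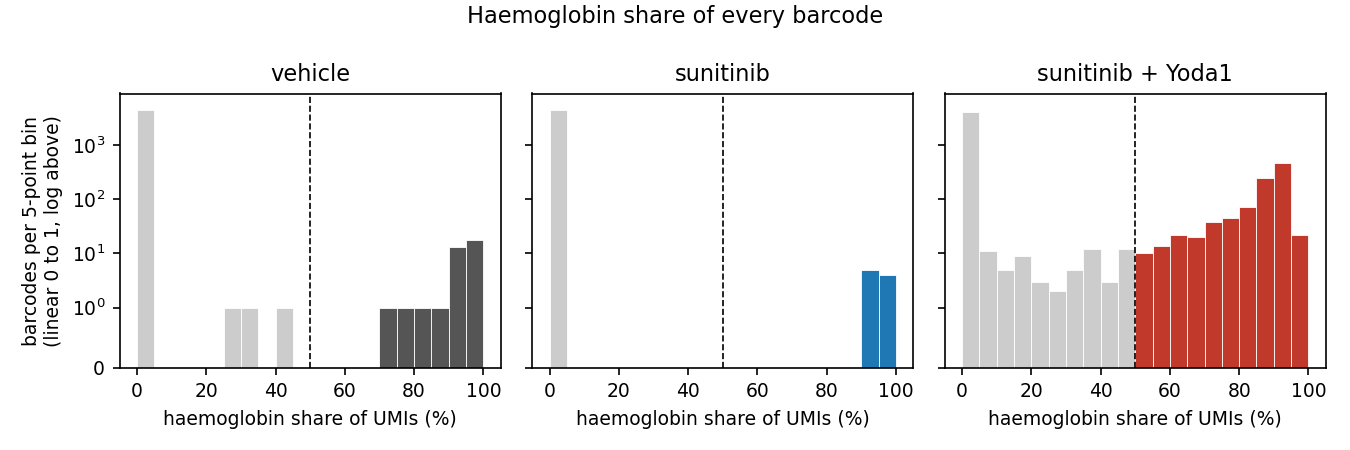
Number of barcodes (vertical axis, linear from 0 to 1 and logarithmic above) by haemoglobin share of UMIs in bins of 5 points, for each library. The dashed line marks 50%, coloured bars are the chosen barcodes, and few barcodes lie between 5% and 50% in any library (3, 0 and 62).

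Few barcodes lay near the limit of 50%. Lowering the threshold to 40% would have added 1 vehicle barcode and 15 of the combined treatment. The latter, just outside, had a median of 6717 UMIs and 1486 detected genes, and 6 of the 15 carried B or T cell transcripts. The 24 barcodes just inside, at 50 to 60%, had a median of 698 UMIs and 68.5 genes, and 4 of the 24 carried such transcripts. At 90% or more there were 31, 9 and 492 barcodes. The vehicle and sunitinib barcodes thus sat mostly above 90%, while many of the combined treatment lay below.

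The chosen barcodes were deep in UMIs and poor in genes. Their median was 8423 UMIs in the vehicle library (range 922 to 15116), 7844 in the sunitinib library (3298 to 14026) and 6221 in the combined treatment library (507 to 26125). The median number of detected genes was 99, 160 and 98. Outside the 4 globins a barcode held a median of 334, 419 and 493 UMIs. Fewer than 300 genes were detected in 35 of 35, 9 of 9 and 931 of 961 barcodes. A filter at 300 genes, with at least 500 UMIs and at most 15% mitochondrial UMIs, would leave 0, 0 and 30 of them.

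Haemoglobin transcripts outside these barcodes were few. In barcodes with under 5% haemoglobin, the median was 0, 0 and 2 globin UMIs in the vehicle, sunitinib and combined treatment libraries. At least 1 globin UMI was present in 12.4%, 2.22% and 86.4% of these barcodes. The order followed the number of red cell barcodes in the library. Alas2, which did not enter the rule, gave at least 1 UMI in 80.0%, 88.9% and 82.2% of the chosen barcodes. In barcodes of the combined treatment library that carried B or T cell markers, 1.46% had an Alas2 UMI at a median depth of 5634 UMIs. With every barcode thinned to 500 UMIs, the Alas2 shares were 31.4%, 44.4% and 41.4% against 0.270%. The red cell label was thus met by a marker that had no part in the choice of barcodes in the first 2 libraries as well as the third.

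Alpha transcripts made up about 4 in 10 haemoglobin UMIs. These genes chose the barcodes, so their levels are a description. Pooled over barcodes, the alpha share was 40.7% in the vehicle library, 39.2% in the sunitinib library and 37.6% in the combined treatment library. The spread between barcodes (SD) was 7.25, 6.19 and 7.25 points, with medians of 41.1%, 41.6% and 37.9%. The exact binomial intervals of the pooled shares, 40.5% to 40.9%, 38.8% to 39.5% and 37.5% to 37.6%, did not overlap. They cover counting error within each library, and the spread between animals is not known. Single barcodes reached from 17.9% to 87.3% in the combined treatment library. Its 20 barcodes with an alpha share of 60% or more were shallow, with a median of 828.5 UMIs, as were the 6 under 25%, with 1480. In the 880 barcodes at 25 to 50% the median was 6847 UMIs.

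Within the alpha pair, Hba-a1 took 55.9%, 52.5% and 56.9% of UMIs, a split that the near-identical sequences leave uncertain. Within the beta pair, Hbb-bt took 14.69%, 16.04% and 15.86%, and Hbb-bs the rest. Hba-a1 shares had an SD between barcodes of 2.83, 4.77 and 2.91 points. Hbb-bt shares had an SD of 7.75, 8.16 and 7.64 points. They ran from 0.582% to 26.7% in the vehicle library, from 1.14% to 22.5% in the sunitinib library and from 0% to 29.7% in the combined treatment library. The 3 ranges overlapped over nearly their whole length. Globin UMIs in the other barcodes (under 5% haemoglobin) held alpha at 37.0%, 27.6% and 37.6%, and Hbb-bt at 11.4%, 11.8% and 13.2% of beta. The sunitinib alpha value rests on 105 UMIs (interval 19.3 to 37.2) and was below that of the red cell barcodes.

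**Figure D2:**
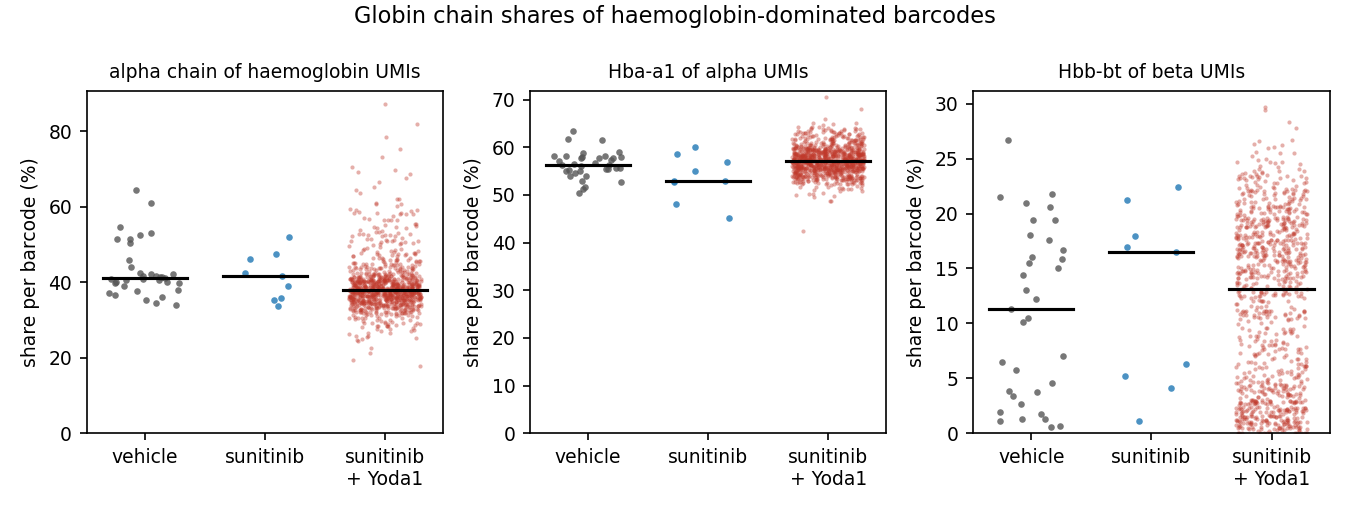
Share per barcode (%) of alpha chain among haemoglobin UMIs, of Hba-a1 among alpha UMIs and of Hbb-bt among beta UMIs, for each library, with 1 point per chosen barcode and a black line at the median. In the combined treatment library the Hbb-bt share spans 0% to 29.7% and the Hba-a1 share 42.5% to 70.5%, and the middle 50% of barcodes lie at 3.88% to 18.2% and 55.5% to 59.0%.

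The Hbb-bt share followed the depth of the barcode. Barcodes were set in 3 ranges of Hbb-bt among beta UMIs, under 5%, 5 to 15% and 15% or more, with limits set after the distribution was seen. The combined treatment library had 288, 266 and 407 barcodes in these ranges, with median depths of 1726, 6074.5 and 9458 UMIs. The vehicle library had 12, 9 and 14, with medians of 2907.5, 8975 and 12217.5. The sunitinib library had 2, 2 and 5, with medians of 4885, 5290 and 11551. The order of depth was the same in each library. Over the 961 barcodes of the combined treatment, Spearman's rho between Hbb-bt share and total UMIs was 0.80, where both quantities share the counts of a barcode. The ranges divide a continuous spread, and 157 of the 961 barcodes lay within 1 point of a limit.

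**Figure D3:**
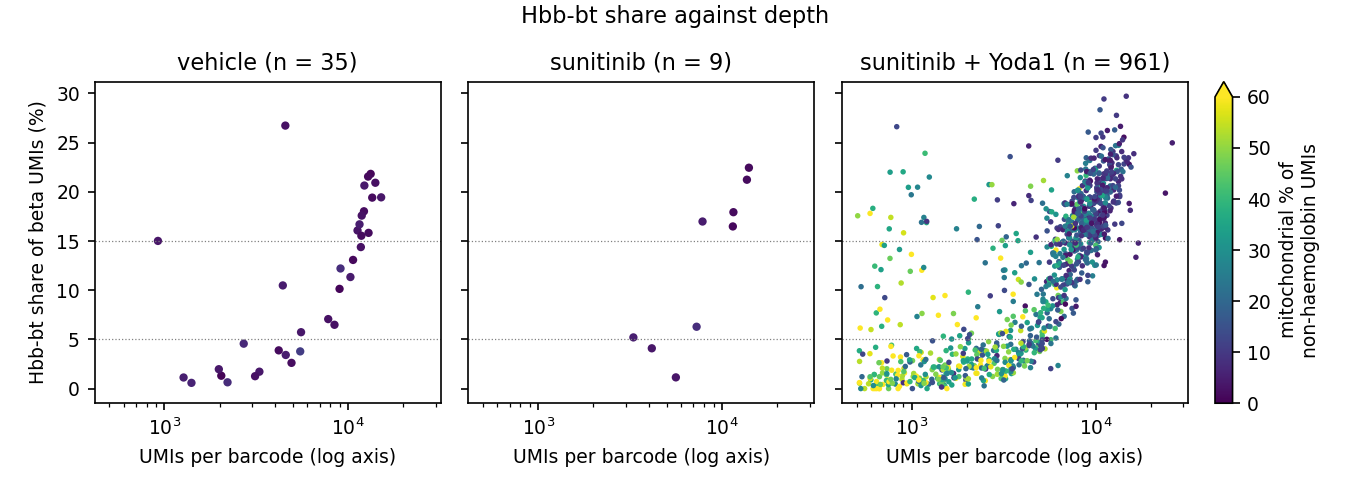
Hbb-bt share of beta UMIs (%) against UMIs per barcode (log axis) for each library, coloured by the mitochondrial share of UMIs outside haemoglobin (the last colour stands for 60% and more). Dotted lines mark 5% and 15%, and in each library most barcodes at 15% or more are among the deepest.

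Other red cell transcripts differed across the Hbb-bt ranges by very different amounts. Values here are UMIs per 10000 haemoglobin UMIs, given for under 5%, 5 to 15% and 15% or more. In the combined treatment library Bpgm, which makes the 2,3-bisphosphoglycerate that lowers haemoglobin's oxygen affinity, stood at 1.92, 9.75 and 21.0. Mkrn1, a ubiquitin ligase, stood at 1.76, 9.12 and 17.7, and the antioxidant enzyme gene Gpx1 at 0.192, 5.11 and 17.0. All 3 genes were thus scarce in the barcodes with little Hbb-bt. Alas2 stood at 9.61, 13.6 and 14.1, a smaller difference, and the ferritin light chain Ftl1 at 13.8, 13.9 and 14.3, with overlapping intervals. Tpt1, a translationally controlled protein gene, ran the other way, at 21.5, 9.20 and 7.69.

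The same order of the ranges was seen in the vehicle library for Bpgm, at 1.17, 5.97 and 14.1, for Mkrn1, at 1.17, 4.88 and 11.3, and for Gpx1, at 0.292, 0.814 and 8.05. Vehicle Ftl1 stood at 10.5, 10.7 and 10.6, and Tpt1 at 12.0, 5.02 and 5.66. In the sunitinib library, with 2, 2 and 5 barcodes, Bpgm stood at 1.08, 3.04 and 13.1 and Mkrn1 at 1.08, 7.09 and 10.6. Gpx1 did not keep the order there, at 1.08, 0 and 8.28, nor did Tpt1, which was lowest in the first range at 3.23, 19.3 and 11.5, on 3, 19 and 64 UMIs. As log2 ratios of 15% or more over under 5%, Bpgm was 3.46 (conditional binomial interval 3.17 to 3.76) in the combined treatment library, 3.60 (2.22 to 5.48) in the vehicle library and 3.61 (1.08 to 8.93) in the sunitinib library. These intervals overlap. Alas2 was 0.55 (0.42 to 0.69) in the combined treatment library, 0.89 (0.27 to 1.57) in the vehicle library and 2.26 (0.66 to 4.57) in the sunitinib library, the last on 86 and 3 UMIs. Ubb, a ubiquitin gene, was 1.31 (1.16 to 1.47) in the combined treatment library and 0.08 (-0.57 to 0.78) in the vehicle library, and this difference between libraries was not tested.

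**Figure D4:**
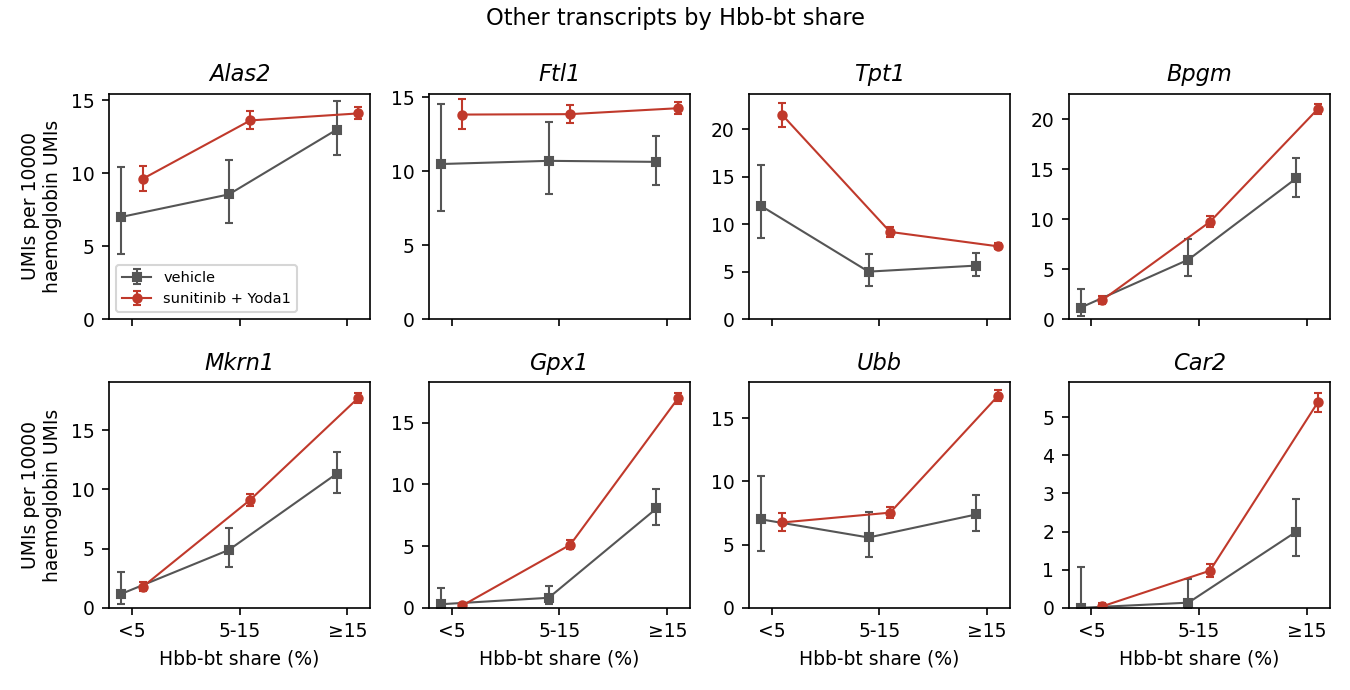
UMIs per 10000 haemoglobin UMIs (vertical axes from 0) of 8 genes in barcodes with an Hbb-bt share under 5%, 5 to 15% and 15% or more, for the vehicle library (grey squares) and the combined treatment library (red circles), with exact Poisson 95% intervals. Bpgm and Mkrn1 are higher in each next range in both libraries, Ftl1 lies close to level across the ranges and Tpt1 is highest where Hbb-bt is lowest. The lower 2 vehicle ranges rest on 1 and 6 UMIs for Gpx1 and on 0 and 1 for Car2, with overlapping intervals.

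Across all genes of the combined treatment library, 862 genes outside the globins had at least 20 UMIs in the top and bottom ranges together. Of these, 302 (35% of genes) were at least 2-fold higher per haemoglobin UMI at 15% or more and 113 (13.1%) at least 2-fold lower. Among genes of terminal maturation and organelle clearance, 13 of 16 were higher and 0 lower, with a median log2 ratio of 2.02 against 0.34 over all genes. Among redox defence genes 6 of 7 were higher, and among membrane and skeleton genes 7 of 12. These lists and the ranges were chosen with earlier results of these data known. Car2, the cytosolic carbonic anhydrase, was at 1819 and 2 UMIs (log2 ratio 7.13, interval 5.28 to 10.2). The anion exchanger Slc4a1 was at 463 and 1 (6.16, 3.67 to 11.5). Of the genes of iron uptake and storage, 0 of 3 passed 2-fold.

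Depth differed between these ranges, so the levels were also taken within 1 depth window. At 4000 to 8000 UMIs the combined treatment library had 33, 154 and 73 barcodes in the 3 ranges. There Bpgm stood at 2.52, 7.13 and 12.2 per 10000 haemoglobin UMIs, Mkrn1 at 4.24, 7.26 and 12.1, and Gpx1 at 0.144, 2.04 and 6.62. The Gpx1 level under 5% rests on few UMIs, as that range held 10 over all depths. Alas2 stood at 13.9, 14.4 and 14.6, and Tpt1 at 12.1, 8.56 and 6.69. The order of the ranges was the same as over all depths, but the differences were smaller for Bpgm, Mkrn1, Gpx1 and Tpt1. The Alas2 levels lay close together. Median depth still ran from 4634 to 6331.5 and 7110 UMIs within the window. At 8000 to 30000 UMIs, where no barcode was under 5%, the 5 to 15% range (42 barcodes) and the highest range (302) stood at 18.4 and 22.5 for Bpgm and at 14.6 and 18.6 for Gpx1. Within the 5 to 15% range alone, from the shallowest window (500 to 2000 UMIs) to the deepest (8000 to 30000), Bpgm stood at 4.32, 4.52, 7.13 and 18.4. Gpx1 stood at 0.392, 0.770, 2.04 and 14.6 there, its shallowest value on very few UMIs. These levels thus followed depth as well as the Hbb-bt share, and the parts of each were not separated. With all barcodes of at least 1000 UMIs thinned to 1000 (69, 19 and 11 shallower ones left out), a Bpgm UMI was found in 13.2%, 42.9% and 71.5% of barcodes, against 22.6%, 68.8% and 96.1% unthinned. An Ftl1 UMI was found in 60.3%, 68.4% and 70.5%, against 72.2%, 92.9% and 99.02% unthinned.

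Over all depths, mitochondrial transcripts moved with the same ranges in the combined treatment library. They made up 39.3%, 23.1% and 14.6% of UMIs outside haemoglobin from the lowest to the highest Hbb-bt range, or 658, 256 and 170 per 10000 haemoglobin UMIs. In the vehicle library the shares were 4.63%, 3.35% and 2.53%, and in the sunitinib library 3.50%, 6.75% and 1.94%. Within depth windows of the combined treatment library the order was not always kept. At 4000 to 8000 UMIs the levels were 308, 210 and 222 per 10000 haemoglobin UMIs. The under 5% and 5 to 15% ranges stood at 1172 and 1369 at 500 to 2000 UMIs, and at 541 and 511 at 2000 to 4000. The part of mitochondrial transcripts and of shallow capture in the gene differences was not tested.

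Beyond globin, the most abundant transcripts were much the same in all libraries. Of the 15 genes with most UMIs outside globin, mitochondrial and ribosomal protein genes, 12 were common to all 3 libraries, among them Gm42418, AY036118, Alas2, Ftl1, Fth1, Bpgm, Mkrn1, Ubb, Tpt1, Oaz1 and Gpx1. Per 10000 haemoglobin UMIs, Alas2 stood at 10.9 in the vehicle library, 13.6 in the sunitinib library and 13.5 in the combined treatment library. Ftl1 stood at 10.6, 12.4 and 14.1. Bpgm stood at 10.1, 10.3 and 16.2, on 260 and 77 UMIs in the first 2 libraries. The vehicle intervals, 9.68 to 12.3 for Alas2, 9.43 to 12.0 for Ftl1 and 8.88 to 11.4 for Bpgm, lay below those of the combined treatment library. The sunitinib intervals for Alas2 and Ftl1 overlapped both. Bpgm was highest in the combined treatment library, also among barcodes at 15% or more Hbb-bt alone. There it stood at 21.0 (20.6 to 21.5), against 14.1 (12.3 to 16.1) in the vehicle and 13.1 (10.3 to 16.5) in the sunitinib library. Such barcodes made up 407 of 961 in the combined treatment library, 14 of 35 in the vehicle and 5 of 9 in the sunitinib library.

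Gm42418, a lincRNA gene annotated at chr17:39846958-39848788 across a ribosomal RNA repeat, led in each library. Together with the overlapping AY036118 it made up 46.9%, 31.0% and 29.9% of UMIs outside haemoglobin in the chosen barcodes, against 4.29%, 4.18% and 6.65% in the other barcodes. Ribosomal protein transcripts went the other way, at 4.49%, 7.70% and 5.20% against 11.5%, 10.7% and 19.7%. Mitochondrial transcripts made up 3.16%, 2.94% and 20.1% in the chosen barcodes against 6.68%, 7.33% and 6.29% in the others. The mitochondrial share was thus above that of the other barcodes in the combined treatment library and below it in the vehicle and sunitinib libraries. Reads from ribosomal RNA and from the genes annotated there cannot be told apart in these counts.

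Cmss1, Cdk8 and Camk1d, which were among the 15 most abundant genes in the combined treatment library, and Gphn together held 49243 UMIs there, or 7.79% of UMIs outside haemoglobin. In the vehicle and sunitinib barcodes they had 0 UMIs, with 95% exact binomial upper limits of 0.0269% and 0.0882%. The other barcodes of these libraries held 0.00446% and 0.00496%, and those of the combined treatment library 1.56%. These are long genes, spanning 304865, 71645, 421059 and 458394 bases. The combined treatment library was made with Cell Ranger 7.1.0, which counts intronic reads by default, and the others with 6.0.0, which does not. Version and treatment cannot be told apart. Across the Hbb-bt ranges, Cmss1 per haemoglobin UMI hardly moved, with a log2 ratio of -0.09 (-0.14 to -0.04). Cdk8 was at -0.36 (-0.46 to -0.25). Gphn and Camk1d were at least 2-fold lower at 15% or more, at -1.04 (-1.19 to -0.88) and -1.61 (-1.70 to -1.52).

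Other transcripts were compared between the 961 barcodes and the other 4157 barcodes of the combined treatment library, as counts scaled to equal totals of UMIs outside the globins. Only this library had 50 or more chosen barcodes. Of 14957 genes with at least 20 UMIs, 338 (2.26%) were at least 2-fold higher and 9701 (64.9%) at least 2-fold lower in the red cell barcodes. With an interval beyond 0 in addition, 279 (1.87%) were higher and 8374 (56%) lower. The median log2 ratio over the 12288 genes for which the counts gave a direction was -2.05. Most genes tested were thus lower, in barcodes where Gm42418, AY036118 and mitochondrial transcripts alone took 29.9% and 20.1% of the UMIs counted.

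The highest ratio was that of Trim10 (log2 ratio 11.2, interval 9.64 to 13.5), which had 3 UMIs in the other barcodes. Then came the theta globin genes Hbq1b (10.3) and Hbq1a (9.92), Alas2 (10.00, 9.81 to 10.2), Tspo2 (9.92) and Epb42 (9.49). Apol11b, Slc4a1, Bpgm, Paqr9, Kel and Car2 followed, between 9.30 and 8.17. Epb42, Slc4a1 and Kel encode proteins of the red cell membrane or its skeleton, and Car2 and Bpgm enzymes of its gas transport and metabolism. At the other end, Ms4a6b, Slc6a6, Bcl11a, Dapl1, Ly6c2, Il1r2, Fmnl2 and Mrc1 each had 1 UMI in the red cell barcodes against 1650 to 2886 in the others. Their log2 ratios ran from -5.55 to -6.35 with wide intervals, and genes with 0 UMIs were ranked as if they had 3.

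**Figure D5:**
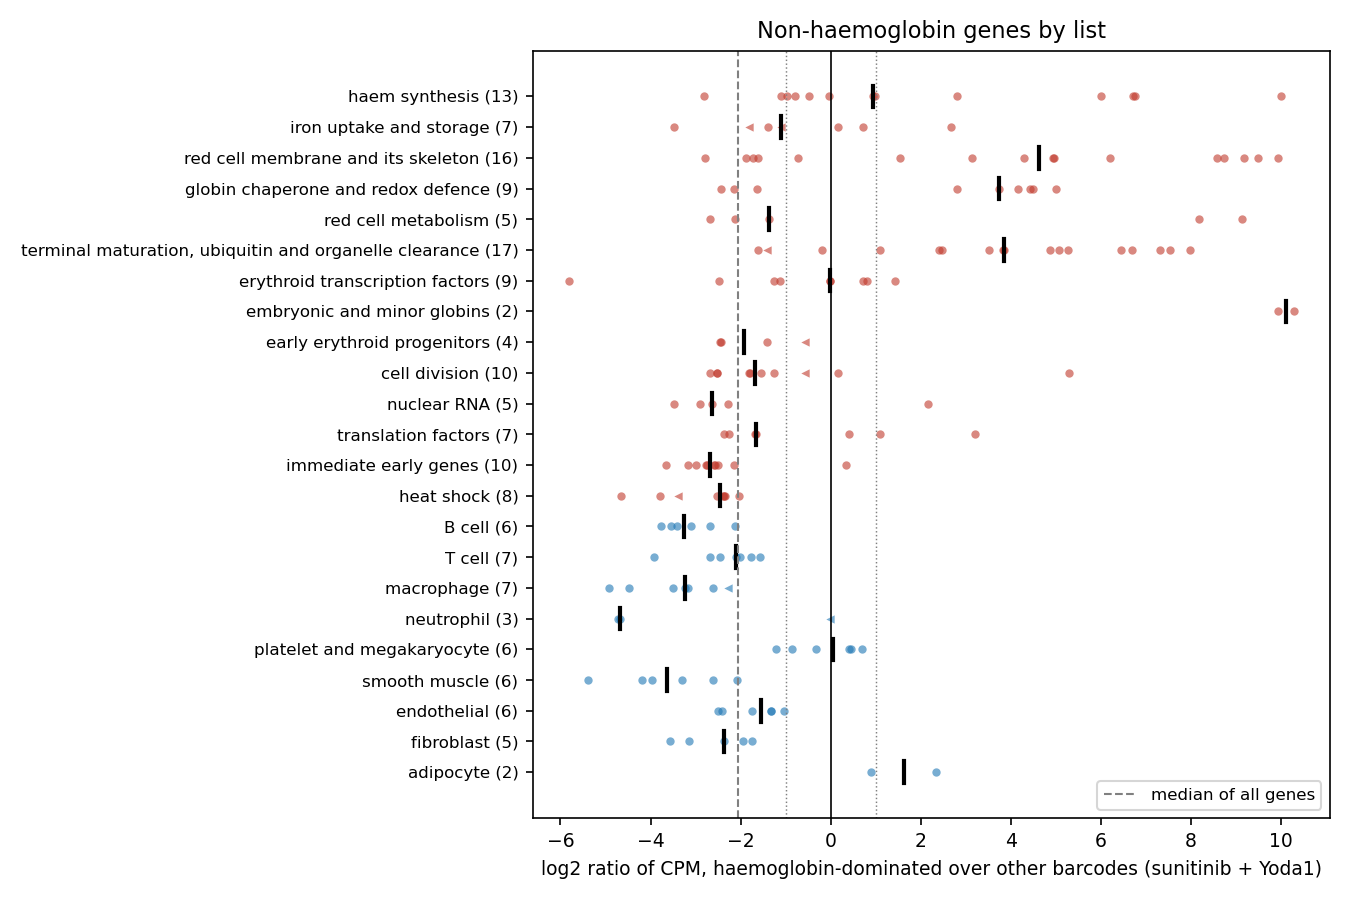
Log2 ratio of scaled counts between the 961 red cell barcodes and the other barcodes of the combined treatment library for each gene of a list (points, with the number of genes in brackets; arrowheads are bounds from 0 UMIs), with the list median as a black bar. Red points are pathway lists and blue points are markers of other cell types, and the dashed line is the median of all genes at -2.05.

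Haem synthesis genes split by step. Of 14 genes, 5 were at least 2-fold higher and 2 lower, with a median of 0.93 against -2.05 over all genes. Of all genes tested, 2.26% were higher and 64.9% lower. Alas2 (7119 UMIs), Slc25a37, the mitochondrial iron importer (1465 UMIs, log2 ratio 6.70), Fech, which puts iron into the ring (1374, 6.76), and Slc25a39 (1026, 5.99) carried nearly all UMIs of the list. Between these steps, Urod had 63 UMIs, Ppox 9, Cpox 7, Alad 4 and Uros 2. The enzymes at the start and end of the path thus held more transcripts than those between them.

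Among iron genes the ferritin chains held most UMIs. Of 7 genes 1 was higher and 4 lower, where 64.9% of all genes tested were lower with a median of -2.05. Ftl1 stood at 7439 UMIs (2.66, interval 2.63 to 2.70) and Fth1 at 3642 (0.72). Tfrc, the transferrin receptor of growing erythroblasts, had 5 UMIs (-1.40, above that median), and Slc11a2 and the iron exporter gene Slc40a1 had 0.

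The membrane and its skeleton had 11 of 17 genes higher and 4 lower, with a median of 4.61. Examples were Epb41, which encodes protein 4.1 (2605 UMIs, 4.95), and the anion exchanger gene Slc4a1 (491, 9.18). Cd47, which spares red cells from macrophages, was lower at 62 UMIs (-1.61), and so was the water channel gene Aqp1 at 29 (-1.88). Among redox genes 6 of 9 were higher, led by Gpx1 (6443 UMIs, 4.99), Prdx2 (1633, 4.43) and Blvrb (785, 3.73), while Txn1, Sod1 and Cyb5r3 were lower. In metabolism, Bpgm (8539 UMIs, 9.13) and Car2 (1954, 8.17) were higher. The glycolytic genes Aldoa (-1.37), Pgam1 (-2.69) and Hk1 (-2.13) were lower. Genes called lower here are to be read beside the median of -2.05 over all genes, above which Cd47, Aqp1 and Aldoa lay. Of all genes tested, 2.26% were higher and 64.9% lower.

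Terminal maturation had 14 of 17 genes higher, 2 lower and a median of 3.85, against 2.26%, 64.9% and -2.05 over all genes tested. It held 4.90% of UMIs outside haemoglobin, against 0.229% in the other barcodes, and 6.29% and 6.46% in the vehicle and sunitinib red cell barcodes. Mkrn1 (7317 UMIs, 7.31), Ubb (7038, 3.51), the poly(A) polymerase gene Tent5c (3274, 7.54) and the mitochondrial clearance receptor Bnip3l (2810, 5.28) led it. The conjugating enzymes Ube2l6 (2201, 7.97) and Ube2o (951, 6.44) and the autophagy genes Gabarapl2 (2123, 5.07) and Map1lc3b (1600, 3.85) followed.

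Genes of earlier stages had few UMIs. Their shares of lower genes are to be read beside the 64.9% of all genes tested that were lower and the median of -2.05. Among erythroid transcription factors 1 of 9 was higher (Lmo2, 124 UMIs, 1.43) and 4 were lower, with a median of -0.03, and Gata1, Klf1 and Gfi1b had 2, 0 and 0 UMIs. Progenitor genes were at 22 UMIs in all, with 0 of 4 higher, 3 lower, a median of -1.93 and Kit and Epor at 0. Cell division genes had 7 of 10 lower and 1 higher, with a median of -1.67, so that this share lay near that of all genes. The gene that was higher was Ube2c, the conjugating enzyme of the anaphase-promoting complex, with 497 UMIs (5.29, interval 5.11 to 5.48), while Top2a and Mki67 had 6 and 5. Of the minor globins, Hbq1a and Hbq1b had 192 and 140 UMIs, and the embryonic Hbb-y and Hba-x 1 and 0. Ube2c was present with 10 and 5 UMIs in the vehicle and sunitinib barcodes.

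The listed nuclear RNAs were lower, apart from Gm42418, whose reads cannot be told apart from those of ribosomal RNA. Malat1, a nuclear RNA, had 1097 UMIs (-2.91, interval -2.999 to -2.827), and a Malat1 UMI was found in 26.1% of red cell barcodes against 98.0% of those with B or T cell markers. Thinned to 500 UMIs these shares were 7.28% and 95.5%. In the vehicle and sunitinib libraries a Malat1 UMI was found in 25 of 35 and 5 of 9 barcodes. Thinned alike, their shares were 14.3% and 0%, against 96.4% and 94.9% of barcodes with smooth muscle markers. Of the 5 listed nuclear RNAs 4 were lower, with a median of -2.64, where 64.9% of all genes tested were lower. Immediate early genes had 9 of 10 lower and 0 higher, with a median of -2.68, and heat shock genes 8 of 8 lower, with a median of -2.46, against -2.05 over all genes. Among translation factors Pabpc1 (2219 UMIs, 3.21) and Eif1 (1544, 1.09) were higher and 4 of 7 lower. Their median was -1.66, above that of all genes.

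Markers of other cell types were present at low counts. Summed B cell markers made up 0.0321% of UMIs outside haemoglobin against 0.340% in the other barcodes, T cell markers 0.0157% against 0.0820%, and smooth muscle markers 0.0190% against 0.219%. The B cell, T cell, macrophage, smooth muscle, endothelial and fibroblast markers tested were all lower (6, 7, 7, 6, 6 and 5 genes). Of all genes tested, 64.9% were lower. The list medians in that order were -3.26, -2.11, -3.24, -3.64, -1.55 and -2.38, against -2.05 over all genes. The T cell median thus lay near that of all genes, and the endothelial median above it. Platelet and megakaryocyte markers had 1 of 6 lower and a median of 0.04. The neutrophil list had 2 of 4 lower with Retnlg, Ltf, Ngp and Camp at 0, and of the adipocyte markers Cidec was higher on 6 UMIs. In the combined treatment library, 33 of 961 red cell barcodes had 3 or more UMIs of such a list, with a median of 468 genes against 96 in the rest. In the vehicle and sunitinib libraries 13 of 35 and 5 of 9 did, all through smooth muscle markers, with Acta2 at 35 and 15 UMIs. The part of other cells' transcripts in the genes counted as lower was not tested.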

How the data were processed

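UMI counts per gene and barcode were read from 3 filtered matrices that the authors deposited, made, per the file headers, with Cell Ranger 7.1.0 for the combined treatment and 6.0.0 for the other libraries. The build was mm10, per the submitters' processing notes; annotation and intron counting are not given in the sources used here. All 14115 barcodes and 32285 genes were used, with no filter and no removal of doublets. The haemoglobin barcodes, gene lists and Hbb-bt ranges were chosen with earlier results of these data known. Counts were summed per library, scaled to equal totals (CPM) of UMIs outside the 4 globin genes or per 10000 haemoglobin UMIs, and compared as log2 ratios for genes with at least 20 UMIs. Intervals (95%) were Clopper-Pearson, exact Poisson or conditional binomial, and cover counting error only. In log2 ratios a count of 0 was set to 3, while the intervals used the count of 0 itself. The ratio formula and its interval were tested on simulated Poisson counts with no variation between barcodes. Named genes were the globins, Alas2, Malat1, the 15 most abundant, the 15 highest and 8 lowest ratios, and from each list the 3 with most UMIs and up to 3 at 0; other list members and all genes under the closing observations were named after their values were seen. Some genes that this rule names are not reported here. Python 3.11.15, pandas 2.3.3, scipy 1.17.1 and Biopython 1.88 were used. Promoter windows came from RefSeq tables (GRCm38.p6). Alternatives covered thresholds, filters, scaling and marked barcodes.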

Additional observations from a re-analysis of the deposited data

How the results depend on the processing

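The number of red cell barcodes depended most on filtering. With at least 500 UMIs, 300 genes and at most 15% mitochondrial UMIs the shares were 0, 0 and 0.958% in the vehicle, sunitinib and sunitinib plus Yoda1 libraries. In the last, thresholds of 75% and 90% gave 16.7% and 9.61%, and the mitochondrial limit alone 21.9%.

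The alpha share became 40.1% (vehicle) and 37.7% (combined treatment) without barcodes carrying other cells' markers. As a mean of each barcode's own share it was 43.2%, 41.5% and 39.1%. In the combined treatment library it was 37.5% at a threshold of 25%, 37.4% at 90% and 36.3% after the 3 filters. Hba-a1 as such a mean was 56.4%, 53.6% and 57.3% of alpha, and 51.5% in the sunitinib library without marked barcodes. Hbb-bs, at 85.3%, 84.0% and 84.1% of beta, became 89.1%, 87.6% and 88.2% as a mean over barcodes. Without marked barcodes it was 84.9% (vehicle) and 81.9% (sunitinib). Vehicle thresholds of 25% and 90% gave 85.5% and 85.1%. In the combined treatment library, 75%, the mitochondrial limit and the 3 filters gave 84.07%, 84.07% and 81.3%. No vehicle or sunitinib barcode passed the 3 filters, so chain shares had no value there.

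Genes at least 2-fold higher numbered 1447 after the 3 filters and 627 with no minimum of UMIs, against 338. Lower genes numbered 1535 after the filters, against 9701, lists with a median of -1 or less 3 against 15, and named genes 17 against 43. The median of all genes was -0.12 in the 30 barcodes left. There the medians turned positive for iron (0.18), metabolism (0.72), progenitors (0.26), cell division (0.12), translation (0.032), T cell (0.30) and endothelial lists (1.01). So did Aldoa (0.72), Cd34 (0.82), Gata2 (0.26), Myb (0.18), Ighd (0.35), Cd3g (0.30), Cdh5 (1.21), Kdr (1.59) and Dcn (0.60), while Lmo2 became -0.29. At a threshold of 25% the endothelial list was at 0.014 and Kdr at 0.21. As a mean over barcodes Cidec was -0.64 and Plin1 -0.80. The cause was not tested. Over all alternatives, 8 list medians and 13 gene ratios that were at least 2-fold changed sign, 65 and 327 others moved by more than the limits set (0.5 for a list, its counting interval for a gene), and 151 and 452 stayed within them.

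No paired analysis was possible because the labels carry no replicate numbers and each group is 1 library. Sunitinib values rest on 9 barcodes and 4181 UMIs outside haemoglobin.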

Other observations

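A few genes outside the lists, chosen after their values were seen, stood high in the red cell barcodes of the combined treatment library. Cd24a, which encodes a surface glycoprotein, was at 1104 UMIs (log2 ratio 4.75, interval 4.63 to 4.86), Tfdp2, a partner of E2F factors, at 911 (5.53), and Ncoa4, the receptor for ferritin autophagy, at 604 (4.97). Each was found in 336 to 356 of the 961 barcodes. In the vehicle and sunitinib barcodes Cd24a had 11 and 6 UMIs, Tfdp2 18 and 5, and Ncoa4 14 and 5.

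Other genes were also chosen after their values were seen and form no fixed list. Rsad2 had 791 UMIs (5.35, interval 5.20 to 5.50) in 26.6% of barcodes and Isg15 403 (3.71) in 12.7%. Irf7 stood at 0.75, Xaf1 at -0.85, Oasl2 at -1.13, Bst2 at -1.30, Ifit1 at -1.65 on 3 UMIs and Ifi27l2a at -2.63, and Ifit3, Zbp1 and Oas1a had 0 UMIs. Rsad2 and Isg15 were also present in the vehicle barcodes with 22 and 10 UMIs, and in the sunitinib barcodes with 7 and 13.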
